A study of Mus musculus with 12 samples.

Results

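The genes described here encode 10 of the enzymes that build purine and pyrimidine nucleotides de novo, chosen by name out of 55536 measured genes. They are *Ppat*, *Gart*, *Pfas*, *Paics*, *Adsl* and *Atic* for purines, and *Cad*, *Dhodh*, *Umps* and *Ctps* for pyrimidines. The RNA came from spleen B cells of C57BL/6 mice aged 7 to 27 weeks, 3 controls (Cre/+) and 3 Pdap1-deficient mice (Pdap1F/F Cre/+). Both genotypes carry 1 copy of a Cre allele that acts in B lineage cells, and in the Pdap1-deficient mice it removes a floxed exon of *Pdap1*. By the study's methods the B cells were isolated by depletion of CD43-positive cells. They received LPS (5 µg/ml) plus either IL-4 (5 ng/ml, a mix called LPS-IL-4) or both BAFF (10 ng/ml) and TGFβ (2 ng/ml), called LPS-BAFF-TGFβ, and RNA was taken after 48 h. Each mouse gave both cultures, so the 12 libraries form 4 groups of 3, and mice are numbered 1 to 3 within each genotype. All 10 genes passed the filter on low counts in every comparison.

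The purine ring is assembled on phosphoribosyl pyrophosphate (PRPP) from glycine, glutamine, aspartate, bicarbonate and one-carbon units carried by folate, and the pathway ends at inosine monophosphate (IMP), from which AMP and GMP are made. The pyrimidine ring is closed first, from glutamine, bicarbonate and aspartate, then joined to PRPP to give UMP, the source of UTP, CTP and the pyrimidine deoxynucleotides. Resting lymphocytes live largely on salvage of bases and nucleosides, whereas dividing lymphocytes raise de novo synthesis to supply RNA and DNA. *Myc* is a known activator of many of these genes, and the Atf4 and mTORC1 pathways act on the supply of one-carbon units.

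The start regions of the genes that the comparisons turn on are shown first. RefSeq promoter sequence (GRCm38.p6) matched 8 of the 10 genes, all but *Pfas* and *Dhodh*, in 9 windows of 250 bases upstream of an annotated start. The windows were searched on both strands for the E-box CACGTG, which Myc and related factors bind, the cAMP response element TGACGTCA, the GC box GGGCGG and CCAAT. The GC box was present for all 8 genes, in 8 of 9 windows, against 32.7% of 32851 windows of the same length over all genes. The E-box was found in the windows of *Atic* and *Paics*, beginning 7 and 203 bases before the start, against 6.02% of all windows. CCAAT was found for *Atic*, *Paics* and *Gart*, against 33.8% of windows, and TGACGTCA in none of the 9, against 1.55%. A match is a run of letters and not a measured binding site. Capitals in the sequences below mark the matches, each sequence reads 5′ to 3′ on the strand of its gene, and 2 neighbouring GC boxes in *Atic* share bases. *Cad* (chr5:31054624-31054779, plus strand, from the end of the upstream gene *Atraid*), *Gart* (chr16:91646973-91647222, minus strand) and *Ctps* (chr4:120570277-120570526, minus strand) are shown because their mRNA passed a test below, and *Atic* (chr1:71556906-71557155, plus strand) because it holds an E-box next to the start.
Cad: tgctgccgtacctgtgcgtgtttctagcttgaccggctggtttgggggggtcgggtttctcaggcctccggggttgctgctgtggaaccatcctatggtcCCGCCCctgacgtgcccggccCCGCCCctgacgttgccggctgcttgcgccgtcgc
Gart: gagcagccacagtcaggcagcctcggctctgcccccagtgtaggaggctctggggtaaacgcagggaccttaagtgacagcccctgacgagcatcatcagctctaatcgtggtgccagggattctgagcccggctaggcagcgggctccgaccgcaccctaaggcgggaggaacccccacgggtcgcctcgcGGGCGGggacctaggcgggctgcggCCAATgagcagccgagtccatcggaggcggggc
Ctps: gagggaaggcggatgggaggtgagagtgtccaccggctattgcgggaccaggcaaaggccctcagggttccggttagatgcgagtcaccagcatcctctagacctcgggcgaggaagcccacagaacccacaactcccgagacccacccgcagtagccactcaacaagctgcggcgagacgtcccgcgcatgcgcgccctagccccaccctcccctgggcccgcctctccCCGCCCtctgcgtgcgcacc
Atic: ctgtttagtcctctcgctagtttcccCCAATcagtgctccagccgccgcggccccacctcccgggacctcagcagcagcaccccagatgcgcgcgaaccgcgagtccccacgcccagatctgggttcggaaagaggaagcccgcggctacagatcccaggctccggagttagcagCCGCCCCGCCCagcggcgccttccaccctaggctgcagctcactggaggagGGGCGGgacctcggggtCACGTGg

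*Ppat* (chr5:76913249-76951578, minus strand) and *Paics* (chr5:76951307-76967509, plus strand) are a head-to-head pair whose GENCODE M21 gene models overlap by 272 bases, so the upstream window of each lies in the other gene. Reads from that overlap can be assigned only by strand, and the strand setting of the authors' counting is not given in the sources used here. Annotated antisense transcripts also cross *Ppat*, *Gart* and *Umps*, and a processed pseudogene lies inside *Adsl*. Each of these had between 158 and 638 counts over all 12 libraries, against 36269 for *Ppat*.

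Total counts were between 4579793 and 15869143 in 11 libraries and 69500640 in the LPS-BAFF-TGFβ culture of control mouse 1. Levels are given as CPM, a gene's counts as a share of its library's total after TMM scaling. *Pdap1* itself had 92.98, 91.4 and 97.8 CPM in control mice 1 to 3 and 23.3, 27.2 and 29.9 CPM in Pdap1-deficient mice under LPS-IL-4. Under LPS-BAFF-TGFβ it had 199, 80.3 and 100.3 against 26.4, 26.01 and 22.98 CPM. The groups did not overlap, and the deep library of control mouse 1 was the highest. B cell identity was clear in every library, with *Pax5* between 690.0 and 943 CPM and *Ms4a1* between 464 and 1087 CPM. The 7 T cell markers summed to between 0.545 and 7.45 CPM, apart from Pdap1-deficient mouse 2 with 20.2 CPM under LPS-IL-4 and 10.5 CPM under LPS-BAFF-TGFβ, and no single one passed 8.27 CPM (*Cd8a*). The same mouse stood apart further in that its 6 myeloid markers summed to 265 CPM under LPS-IL-4 and 491 under LPS-BAFF-TGFβ, whereas those of mouse 1 summed to 11.9 and 15 and those of mouse 3 to 37.6 and 79.8. In the control libraries the sum was between 8.99 and 28.1 CPM. The labels give the B cell line CH12 as the cell line, whereas their protocol and the study's methods describe spleen cells of individual mice.

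Per kilobase of exon, *Paics* was by far the most abundant of the 10 mRNAs and *Dhodh* the least. In control LPS-IL-4 cultures *Paics* reached 144 ± 4.49 CPM per kb (SD, n = 3) and *Dhodh* 6.11 ± 0.883. Between them came *Ctps* (68.5 ± 2.03), *Gart* (63.3 ± 4.15), *Cad* (59.98 ± 0.803), *Ppat* (58.3 ± 2.14), *Atic* (51.1 ± 0.817), *Umps* (48.3 ± 2.07), *Pfas* (43.7 ± 0.76) and *Adsl* (32.8 ± 1.78), all in CPM per kb. The ranges of *Gart* and *Cad*, and of *Cad* and *Ppat*, overlapped in this group, and other neighbours in the order did not. In the other 3 groups *Paics* was again first and *Pfas*, *Adsl* and *Dhodh* last in that order, each clear of the next, while from *Ctps* or *Gart* down to *Umps* and *Pfas* every neighbour overlapped.

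The first comparison asked whether B cells without Pdap1 express the pathway at another level under LPS-IL-4. For all 10 mRNAs the 3 Pdap1-deficient mice lay below the lowest control mouse, at 66.5% to 75.1% of the control mean, and 3 of them passed the test: *Gart*, *Pfas* and *Cad*. The fitted log2 fold changes ran from -0.60 to -0.42 with a median of -0.50, beside a median of 0.02 over the 15074 genes tested. Groups that do not overlap with the Pdap1-deficient side lower made up 16.1% of all genes, and genes called lower at an adjusted p under 0.05 made up 2.12% (edgeR's quasi-likelihood F test, Benjamini-Hochberg over all genes tested). In bulk RNA, fewer expressing cells and less RNA per cell cannot be told apart.

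Among the purine enzymes, *Gart* codes for a protein with 3 activities, one of which places the first folate-borne formyl group in the ring. Its level was 301, 336 and 340.1 CPM in control mice 1 to 3 and 249, 177 and 224 CPM in Pdap1-deficient mice 1 to 3. It fell, with a log2 fold change of -0.60 (SE 0.14, adjusted p = 0.0384). *Pfas*, the glutamine-using synthase of the step after that formyl transfer, had 346, 341 and 353 CPM in controls and 268, 230.1 and 241 CPM in Pdap1-deficient mice. It fell by less but with a narrower spread, at -0.50 (SE 0.10, adjusted p = 0.027). *Ppat*, which commits PRPP to the pathway, was 263, 263 and 247 CPM in controls against 219, 139 and 223 CPM. Its log2 fold change of -0.42 (SE 0.17, adjusted p = 0.176) had the widest standard error of the 10, and mouse 2 lay far below mice 1 and 3.

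*Paics*, a carboxylase and synthetase in one protein, was 451, 465 and 437 CPM in controls and 383, 262 and 357 CPM in Pdap1-deficient mice, with a log2 fold change of -0.44 (SE 0.15). *Adsl*, a lyase used once on the way to IMP and again on the way to AMP, was 174, 185 and 194 CPM against 161, 110.2 and 138 CPM, a change of -0.45 (SE 0.14). *Atic*, which adds the last one-carbon unit and closes the ring to IMP, was 406, 415 and 403 CPM against 336, 231 and 306 CPM, a change of -0.49 (SE 0.14). For these 3 genes mouse 1 was the nearest to the controls and mouse 2 the farthest, and none passed the threshold (adjusted p between 0.072 and 0.104, edgeR), although their 95% intervals did not reach 0.

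The pyrimidine enzymes gave the same picture. *Cad*, whose protein carries the first 3 activities of the pathway, was 490.3, 485 and 498 CPM in controls and 358, 310.3 and 320.0 CPM in Pdap1-deficient mice. The control mice differed by little and all 3 Pdap1-deficient mice lay well below them, and *Cad* fell with a log2 fold change of -0.58 (SE 0.11, adjusted p = 0.0163), the smallest adjusted p among the 10. *Dhodh*, the mitochondrial enzyme that oxidises dihydroorotate, was 34.3, 36.6 and 44.9 CPM against 30.4, 21.7 and 30.3 CPM, a log2 fold change of -0.50 (SE 0.16, adjusted p = 0.0958). It was the least abundant member, and control mouse 3 was its highest library. *Umps*, which forms orotidine monophosphate and then UMP, was 161, 169 and 175 CPM against 143, 96.3 and 130.4 CPM (-0.45, SE 0.15, adjusted p = 0.0944). *Ctps*, which turns UTP into CTP, was 228, 233 and 219.7 CPM against 178, 121 and 179 CPM (-0.52, SE 0.15, adjusted p = 0.0753), again without overlap and past no threshold.

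**Figure D1:**
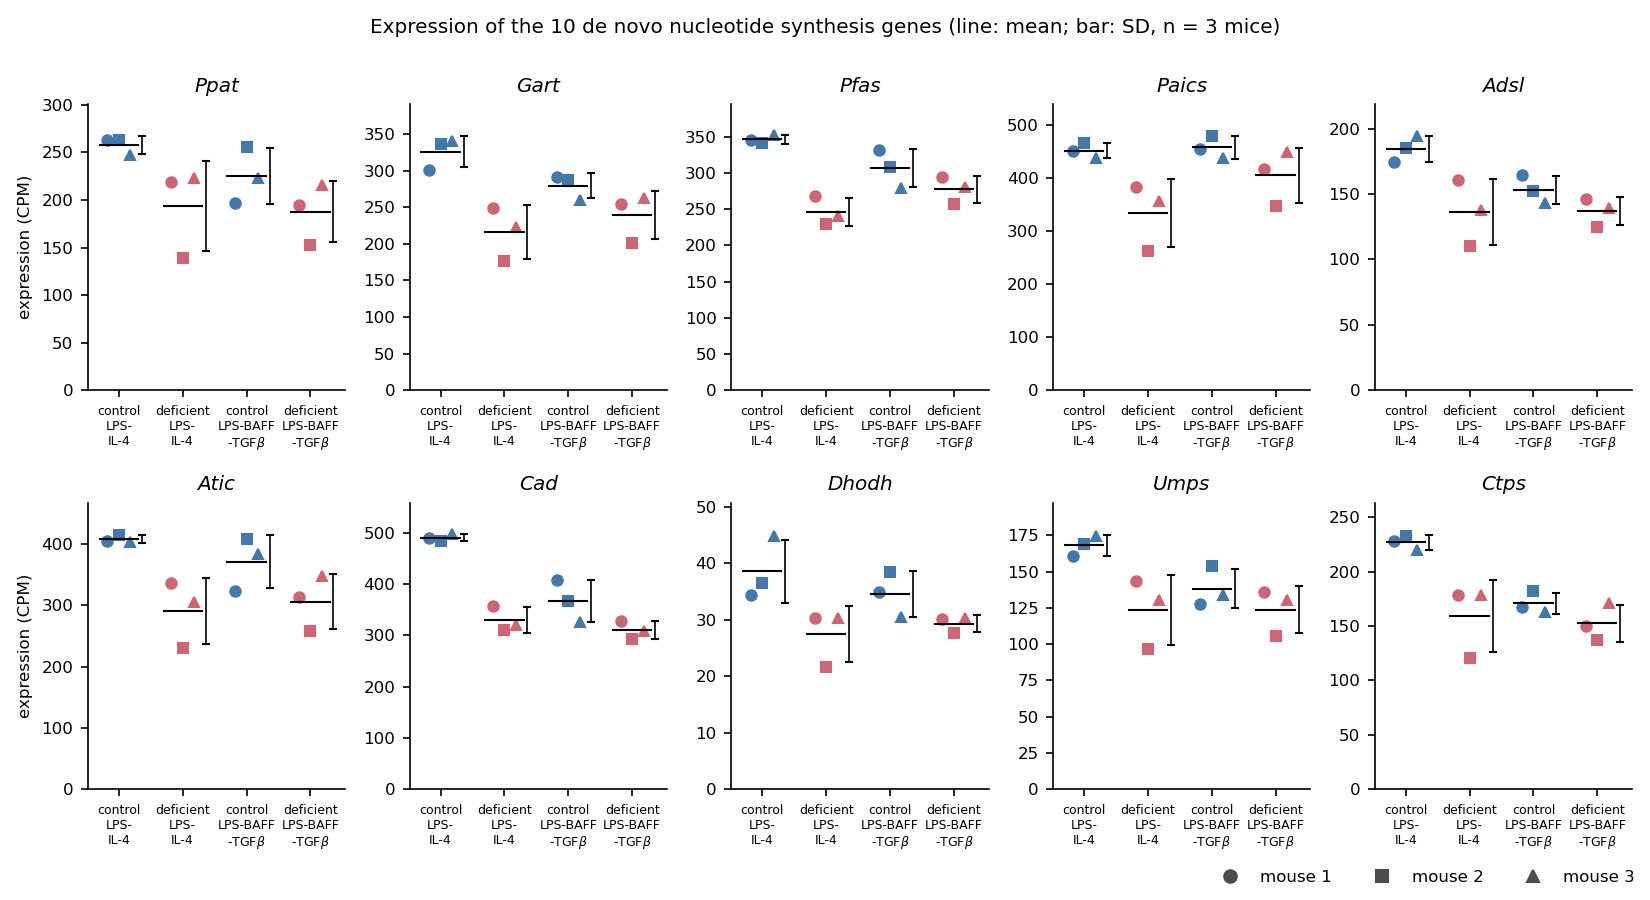
Expression (CPM, linear axes from 0) of each of the 10 genes in control (blue) and Pdap1-deficient (red) cultures, with a marker per mouse, a line at the mean and a bar of 1 SD (n = 3 mice). With LPS-IL-4 every red marker lies below every blue marker of the same gene, and the square of Pdap1-deficient mouse 2 is the lowest in each panel.

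Summed over the 10 genes, the level was 2854, 2929.7 and 2912 CPM in control mice 1 to 3 and 2326, 1698 and 2148 CPM in Pdap1-deficient mice 1 to 3 with LPS-IL-4. Mouse 2 was the lowest of its group for 10 of 10 genes and mouse 1 the highest for 8 of 10. Mouse 2 was also the library with the raised myeloid and T cell markers, and their part in its level was not tested. Without that library the median log2 fold change moved to -0.34 and 8 of 10 genes were called, all but *Ppat* and *Dhodh*, while calls over all genes went from 4.92% to 9.58%. Without the filter on low counts all 10 were called, as were 5.9% of all genes. The 8 genes called without mouse 2 were also those called without mouse 1 and by DESeq2, whereas leaving out mouse 3 or any 1 control library left 0 called, at medians between -0.54 and -0.49. Over all genes, calls made up 11.4% without mouse 1, 4.28% by DESeq2, 1.05% without mouse 3 and 0.44% to 0.585% without a control library.

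With LPS-BAFF-TGFβ the 10 genes again all had fitted values below control, as did 49.1% of all genes, but none passed the test. The log2 fold changes ran from -0.27 (*Atic*) to -0.14 (*Pfas*) with a median of -0.19, against 0.01 over the 14079 genes tested. Called genes were 0 of 10 by edgeR (adjusted p between 0.512 and 0.67), 0 of 10 at an unadjusted p under 0.05 and 0 of 10 by DESeq2. Over all genes edgeR called 0.0071% lower and 0.455% higher, and DESeq2 called 0.587% in either direction. At an unadjusted p under 0.05 edgeR had 1486 of the 14079 genes. All 95% intervals included 0, with lower ends between -0.60 (*Ppat*) and -0.39 (*Pfas*).

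*Ppat* was 197, 255 and 223 CPM in control mice and 195, 153 and 216 CPM in Pdap1-deficient mice, and *Cad* was 409, 368 and 327 CPM against 329, 293 and 309 CPM. In both genes the groups overlapped. *Gart* (292, 287 and 259.7 against 254, 201 and 262 CPM) and *Pfas* (332, 308 and 279 against 295, 257 and 280.2 CPM), called in the other stimulation, overlapped here. *Paics* was 456, 479.7 and 438 against 418, 348 and 449 CPM, *Adsl* 164, 152 and 143 against 146, 125 and 139.5 CPM and *Atic* 323, 408 and 384 against 314, 258 and 347 CPM. Mouse 2 was the lowest Pdap1-deficient library in each of these comparisons. *Umps* was 128, 154 and 134 against 136, 105 and 130.4 CPM and *Ctps* 168, 182 and 163 against 149.7, 137 and 171 CPM. *Dhodh* was the 1 gene of 10 whose groups did not overlap, at 34.9, 38.6 and 30.4 against 30.2, 27.7 and 30.2 CPM, with a gap of a fraction of a CPM, where 9.08% of all genes were lower without overlap. Without mouse 2 the median of the 10 log2 fold changes was -0.13.

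**Figure D2:**
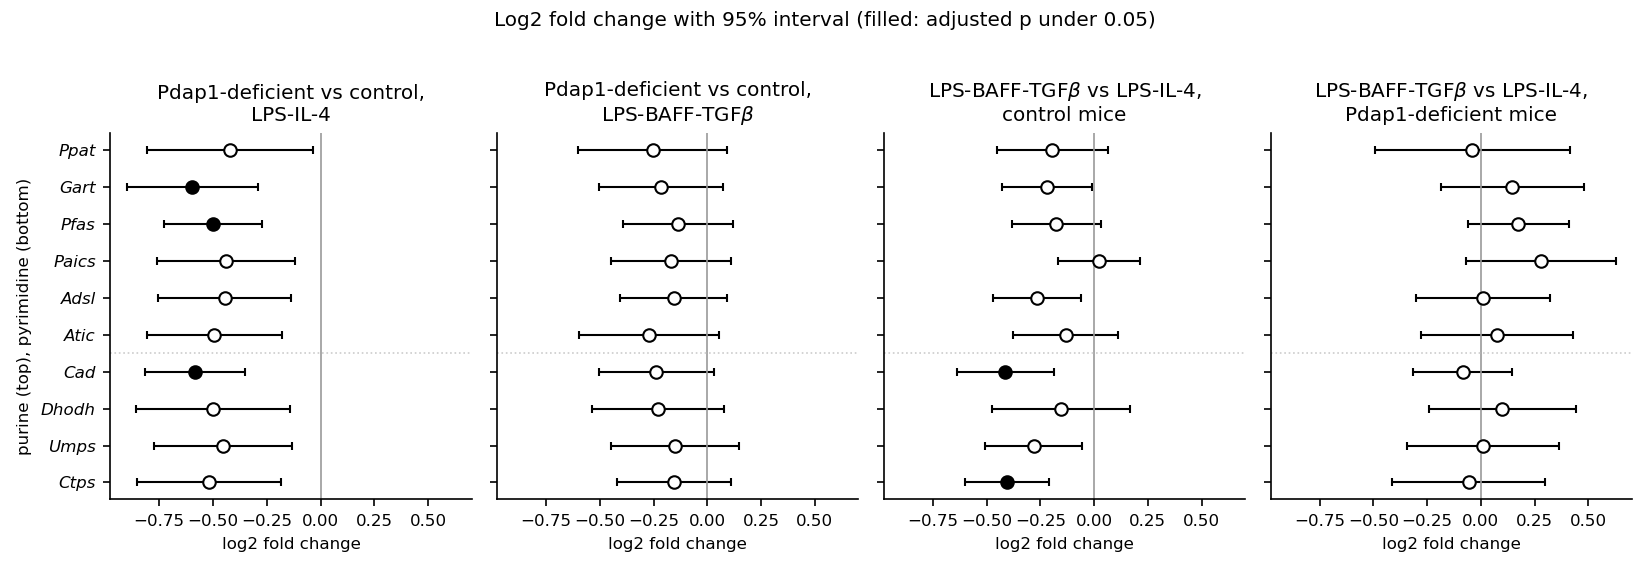
Log2 fold change (points) with its 95% interval (bars) for the 10 genes in 4 comparisons, filled where the adjusted p was under 0.05 (edgeR). With LPS-IL-4 all 10 intervals lie below 0 and *Gart*, *Pfas* and *Cad* are filled, with LPS-BAFF-TGFβ none is, and between stimulations *Cad* and *Ctps* are filled in control mice only.

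The stimulations were compared within each genotype to ask how the choice of cytokines bears on the pathway. In control mice *Cad* and *Ctps* passed the test as lower in LPS-BAFF-TGFβ cultures, at 74.98% and 75.4% of the LPS-IL-4 mean. Both act in the pyrimidine branch, at its first steps and at its last. *Cad* fell with a log2 fold change of -0.41 (SE 0.10, adjusted p = 0.0213) and *Ctps* with -0.41 (SE 0.09, adjusted p = 0.0123), from 491 ± 6.57 to 368 ± 41.2 CPM and from 227 ± 6.72 to 171 ± 9.79 CPM (SD, n = 3). Genes called lower made up 9.33% of the 14882 tested. *Adsl* (-0.27, SE 0.09), *Umps* (-0.28, SE 0.10), *Gart* (-0.22, SE 0.09) and *Pfas* (-0.18, SE 0.09) were lower without overlap and did not pass (adjusted p between 0.0757 and 0.225). With *Cad* and *Ctps* they make 6 of 10 genes lower without overlap, beside 18.8% of all genes. *Ppat* (-0.19, SE 0.11), *Atic* (-0.13, SE 0.11) and *Dhodh* (-0.15, SE 0.14) overlapped, and *Paics* (0.02, SE 0.08) was at 101.5% of its LPS-IL-4 mean. The median over the 10 genes was -0.21, against 0.03 over all genes. Without the deep library of control mouse 1, 6 genes were called (*Adsl*, *Cad*, *Ctps*, *Gart*, *Pfas* and *Umps*), and calls over all genes went from 19.3% to 31.8%. Without the LPS-IL-4 library of control mouse 1 or 2, or the LPS-BAFF-TGFβ library of control mouse 3, 0 were called, and without the LPS-IL-4 library of control mouse 3 only *Ctps* was. With the mouse as a block 1 gene was called, *Ctps*, beside 13.4% of all genes.

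In Pdap1-deficient mice the same comparison gave values on both sides of 0. The median log2 fold change was 0.04, 3 of 10 fitted values were below 0 (50.3% of all genes were), and for all 10 genes the stimulations overlapped (29.1% of all genes did not overlap in either direction). By edgeR 0 of 10 genes were called, where 11.5% of all 14617 genes were called in either direction. At an unadjusted p under 0.05 there were 0 of 10 as well, beside 3438 of all genes. DESeq2 called 0 of 10 and 6.16% of all genes. *Paics* had the largest value, 0.28 (SE 0.15, adjusted p = 0.327), with 383, 262 and 357 CPM in mice 1 to 3 with LPS-IL-4 and 418, 348 and 449 CPM with LPS-BAFF-TGFβ. Each mouse was higher in the latter. With the mouse as a block *Paics* was called (edgeR, adjusted p = 0.0037), 1 of 10 genes, beside 26.4% of all genes in that fit. *Cad*, called in control mice, had -0.08 (SE 0.10) here with a 95% interval of -0.32 to 0.15. *Ctps*, also called there, had -0.06 (SE 0.16) with -0.41 to 0.30. Without mouse 2 the median was -0.02.

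Whether the genotype difference itself depends on the stimulation was asked in 1 fit of all 12 libraries, by its genotype by stimulation term. The term was below 0 for 0 of 10 genes (55.7% of all genes had it below 0) and lay between 0.15 (*Ppat*) and 0.36 (*Gart*), with a median of 0.28 against -0.04 over 15794 genes. A positive value means a smaller decrease with LPS-BAFF-TGFβ. No gene passed (0 of 10 by edgeR with adjusted p from 0.983 to 0.989, 0 of 10 by DESeq2, 0% of all genes called by edgeR). At an unadjusted p under 0.05 there were 2, *Pfas* and *Cad*, beside 755 of all 15794 genes (edgeR). The LPS-IL-4 decrease of *Gart*, *Pfas* and *Cad* was therefore not shown to differ from their change with LPS-BAFF-TGFβ. Within mice, *Gart* and *Pfas* were lower in the LPS-BAFF-TGFβ culture in 3 of 3 controls and higher in 3 of 3 Pdap1-deficient mice, whereas *Cad* was lower in 3 of 3 of both. With the mouse as a block the median term was 0.29 and 0 of 10 genes were called, at an adjusted p of 0.764 for each of these 3 (edgeR). Without Pdap1-deficient mouse 2 the median term was 0.22, and without its LPS-IL-4 library alone it was 0.14 and the term of *Ppat* was -0.04.

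**Figure D3:**
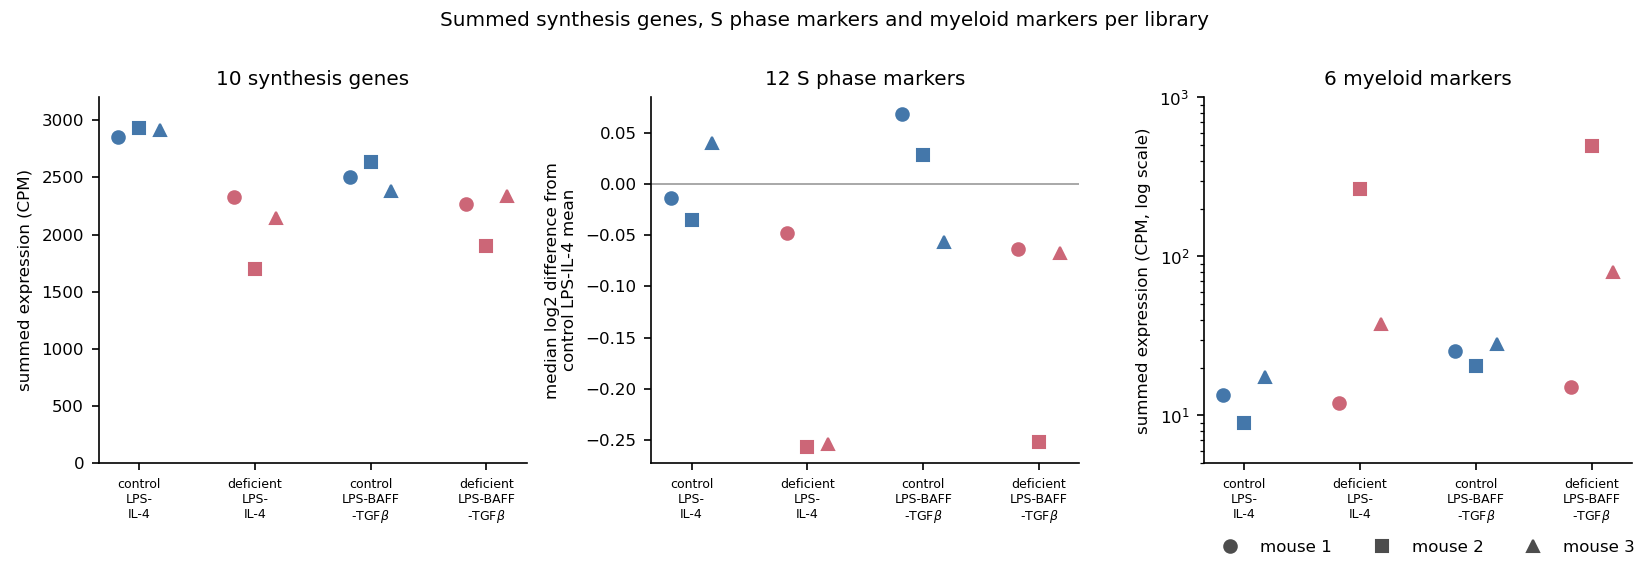
Per library, the summed expression of the 10 synthesis genes (CPM, linear axis from 0), the median log2 difference of 12 S phase genes from the control LPS-IL-4 mean, and the summed expression of 6 myeloid markers (CPM, log axis), in control (blue) and Pdap1-deficient (red) mice. Pdap1-deficient mouse 2 (squares) has the lowest synthesis sum, 1698 CPM under LPS-IL-4 and 1905 under LPS-BAFF-TGFβ, and the highest myeloid sum, 265 and 491 CPM.

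Genes on either side of the 10 enzymes were examined as lists. Upstream, the PRPP synthetases and their partners had 4 of 4 fitted values below control with LPS-IL-4, none called (2 at an unadjusted p under 0.05, 0 by DESeq2), with *Prps1* at -0.43 (SE 0.15, adjusted p = 0.108) and *Prps2* at -0.26 (SE 0.15, adjusted p = 0.331). Over all genes 3582 of 15074 had an unadjusted p under 0.05 there (edgeR). Downstream of IMP, *Adss*, which starts the AMP branch, fell from 250.1 ± 17.6 to 170.4 ± 24.6 CPM (-0.56, SE 0.13, adjusted p = 0.0368). *Impdh1*, an IMP dehydrogenase of the GMP branch, fell from 38.3 ± 1.72 to 24.6 ± 2.86 CPM (-0.65, SE 0.12, adjusted p = 0.0194). *Impdh2* (-0.48, SE 0.13, adjusted p = 0.0583), the major isoform of dividing cells, and *Gmps* (-0.29, SE 0.12, adjusted p = 0.185), which makes GMP, were not called. *Ctps2*, the other CTP synthase, had a value of the opposite sign, at 0.36 (SE 0.11, adjusted p = 0.0957). So did *Adssl1*, the second gene for the *Adss* step, a scarce mRNA with 0.576, 0.809 and 1.14 CPM in control and 1.17, 2.13 and 2.01 CPM in Pdap1-deficient mice (1.06, SE 0.39, adjusted p = 0.132), which was called higher with LPS-BAFF-TGFβ in control mice (1.89, SE 0.32, adjusted p = 0.00451). With LPS-BAFF-TGFβ 0 of 6 were called by genotype. *Impdh1* was also lower with LPS-BAFF-TGFβ when the stimulations were compared, at -1.44 (SE 0.14, adjusted p = 2.66e-04) in control and -1.23 (SE 0.18, adjusted p = 0.00172) in Pdap1-deficient mice.

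Salvage genes did not move as a block. With LPS-IL-4, 1 of 10 tested genes of purine salvage and breakdown was called, *Aprt*, which recovers adenine and fell from 87.4 ± 6.28 to 52.8 ± 6.7 CPM (-0.74, SE 0.12, adjusted p = 0.0113), while *Hprt*, which recovers hypoxanthine and guanine, stood at -0.19 (SE 0.14, adjusted p = 0.418). Of 8 pyrimidine salvage genes 1 was called, *Uck1*, a uridine and cytidine kinase (-0.51, SE 0.12, adjusted p = 0.0367), and its paralog *Uck2* was at -0.52 (SE 0.15, adjusted p = 0.0709). The median log2 fold changes of these lists were -0.17 and -0.0047, beside -0.50 for the de novo enzymes. In each of the 2 lists 3 genes were lower and 1 higher without overlap. Nucleotide kinase genes lay between, with 9 of 10 tested fitted below control and a median of -0.33. None of them was called, and 4 were lower without overlap, where 16.1% of all genes were. Of 7 genes of deoxynucleotide supply, *Dctpp1* (-0.98, SE 0.14, adjusted p = 0.00564) and *Dut* (-0.51, SE 0.12, adjusted p = 0.0456), which clear unwanted dCTP analogues and dUTP, fell. The ribonucleotide reductase genes *Rrm1* (-0.14, SE 0.14) and *Rrm2* (-0.03, SE 0.12) were near control and overlapped it. The thymidylate synthase gene *Tyms* (0.17, SE 0.10, 113.2% of the control mean) and the reductase gene *Rrm2b* (134.0%) were higher without overlap, not called. With LPS-BAFF-TGFβ none of these genes was called by genotype with edgeR.

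The folate enzymes that make the one-carbon units for *Gart* and *Atic* moved in both directions. Of 12 genes shown, 2 rose and 2 fell with LPS-IL-4, where 2.79% of all genes were called higher, and 3 rose with LPS-BAFF-TGFβ. Without Pdap1-deficient mouse 2 the LPS-IL-4 counts were 5 and 4, and by DESeq2 4 and 4. The mitochondrial arm, which oxidises serine carbon to formate, held the increases that edgeR called with all libraries. *Mthfd2*, its dehydrogenase and cyclohydrolase, was 153, 167 and 168 CPM in controls and 319, 216 and 296 CPM in Pdap1-deficient mice with LPS-IL-4, and it rose by 0.76 (SE 0.15, adjusted p = 0.0215) there and by 1.09 (SE 0.15, adjusted p = 0.0143) with LPS-BAFF-TGFβ. *Aldh1l2*, which oxidises formyl-tetrahydrofolate to CO2 in mitochondria, was the most changed, rising from 3.59 ± 0.404 to 25.2 ± 0.397 CPM (2.79, SE 0.15, adjusted p = 1.68e-05) and from 2.25 ± 0.798 to 16.3 ± 3.5 CPM (2.83, SE 0.30, adjusted p = 0.00338). *Shmt2*, the mitochondrial serine hydroxymethyltransferase, rose with LPS-BAFF-TGFβ (0.95, SE 0.12, adjusted p = 0.0105) and stood at 0.48 (SE 0.13, adjusted p = 0.0649) with LPS-IL-4.

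In the cytosolic arm that feeds the purine enzymes directly, *Shmt1* fell with LPS-IL-4, from 224, 229.5 and 229 CPM in control mice 1 to 3 to 159, 104 and 147 CPM in Pdap1-deficient mice (-0.74, SE 0.15, adjusted p = 0.0261). *Mthfd1*, the cytosolic enzyme that makes formyl-tetrahydrofolate, was 304, 325 and 338 against 266, 183 and 230.3 CPM, close to the synthesis genes in size (-0.52, SE 0.14, adjusted p = 0.0623) and not called. *Fpgs*, which adds the glutamate tail that keeps folate in the cell, fell (-0.75, SE 0.13, adjusted p = 0.0124), and the folate carrier *Slc19a1* stood at -0.60 (SE 0.17, adjusted p = 0.0708). With LPS-BAFF-TGFβ *Shmt1* (-0.50, SE 0.13), *Mthfd1* (-0.41, SE 0.13) and *Fpgs* (-0.66, SE 0.16) had values of the same sign, not called. *Mthfd1l* (0.15, SE 0.12), *Mthfd2l* (-0.41, SE 0.23), *Mthfs* (0.70, SE 0.18), *Mtr* (-0.04, SE 0.09) and *Mtfmt* (-0.13, SE 0.12) were not called by genotype in either stimulation, their LPS-IL-4 log2 fold changes being given here. Of these, *Mthfs* was higher without overlap in both stimulations (163.5% and 131.5% of the control mean), and the mitochondrial *Mthfd2l* was lower without overlap with LPS-IL-4 (75.8%). With LPS-BAFF-TGFβ *Mthfd1l* was higher (132.7%) and *Mtfmt* lower (83.3%) without overlap. *Aldh1l1* and *Slc25a32* were too low to test.

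**Figure D4:**
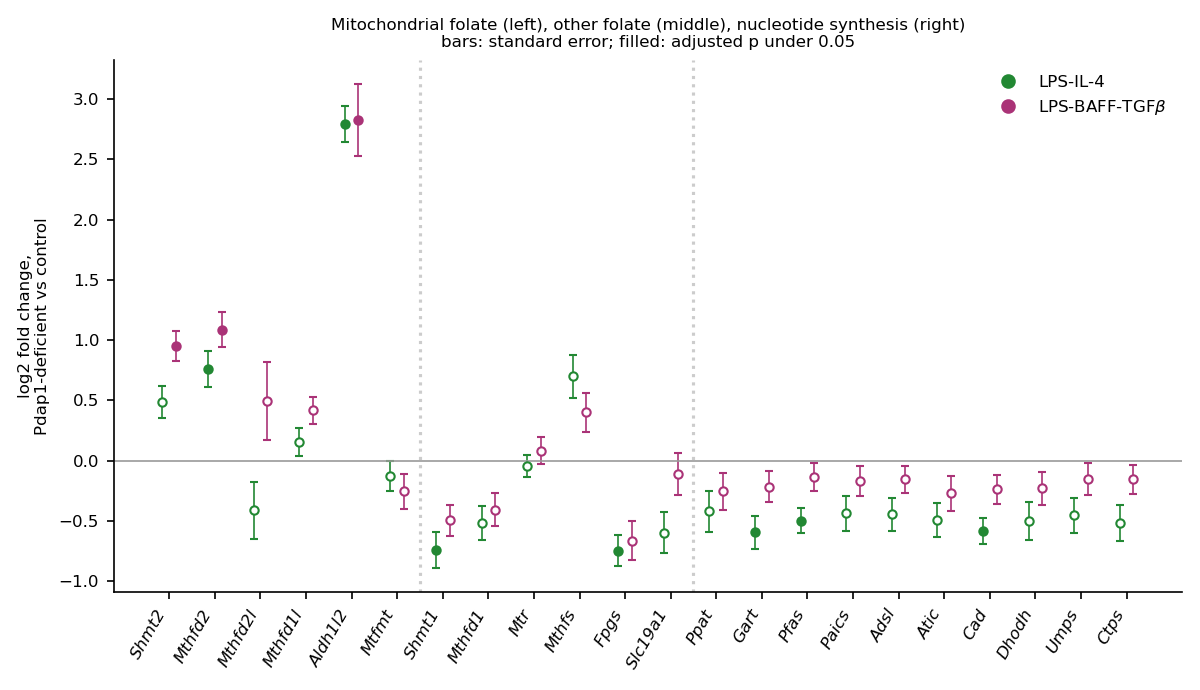
Log2 fold change of Pdap1-deficient against control cells (points, bars of 1 standard error) for 12 folate genes and the 10 synthesis genes, with LPS-IL-4 (green) and LPS-BAFF-TGFβ (purple), filled where the adjusted p was under 0.05. *Mthfd2* and *Aldh1l2* are filled above 0 in both stimulations, and all 10 synthesis genes lie below 0.

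Among genes that supply serine, aspartate and glutamine, the serine pathway enzymes *Psat1* (0.98, SE 0.16, adjusted p = 0.0113) and *Psph* (1.06, SE 0.17, adjusted p = 0.00887) rose with LPS-IL-4, and they rose with LPS-BAFF-TGFβ as well (1.19 (SE 0.14, adjusted p = 0.00518) and 1.20 (SE 0.14, adjusted p = 0.00705)), making 2 of 8 genes in each. The regulator *Atf4*, a transcription factor of the amino acid response, went up from 284 ± 10.7 to 586 ± 115 CPM under LPS-IL-4 (1.04, SE 0.15, adjusted p = 0.00561) and from 213 ± 17.5 to 484 ± 63.8 CPM with LPS-BAFF-TGFβ (1.19, SE 0.13, adjusted p = 0.0039). *Myc* was 127, 137 and 154 CPM in control mice and 114, 77.9 and 94.5 CPM in Pdap1-deficient mice with LPS-IL-4, without overlap and not called (-0.55, SE 0.15, adjusted p = 0.0584). In control mice it was lower with LPS-BAFF-TGFβ (-0.46, SE 0.10, adjusted p = 0.0145) and did not pass with the mouse as a block (adjusted p = 0.0547).

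Markers of S phase were taken as a measure of cell division beside these values. With LPS-IL-4, 12 of 12 had fitted values below control with a median of -0.17, and 0 were called by edgeR or DESeq2. By edgeR 5 had an unadjusted p under 0.05, beside 3582 of all 15074 genes. Their median log2 difference from the control mean was -0.05, -0.26 and -0.25 in Pdap1-deficient mice 1 to 3, where the 10 synthesis genes had -0.31, -0.81 and -0.39. With LPS-BAFF-TGFβ, 11 of 12 were fitted lower with a median of -0.10 and 0 called (0 at an unadjusted p under 0.05, 0 by DESeq2), and across stimulations in control mice the median was 0.10. The part of cell division in the levels of the synthesis genes was not tested.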

How the data were processed

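RNA-seq libraries of 12 cultures from 6 mice were analysed. Per the labels and the study's methods, the authors trimmed reads with Trim Galore 0.6.1, aligned them to GRCm38 with STAR 2.6 and counted them per gene with HTSeq 0.9.1. The counts were deposited without normalization and were used as such. A second table of counts divided by 1 size factor per library was not used. The library kit is given differently in the labels and the methods, and the strand setting is not given in the sources used here. Of 55536 genes 23840 had no counts, and no library was a copy of another. The sex of each mouse is not in the labels and was not fitted.

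Each comparison was fitted on its own groups with edgeR 4.0.16 in R 4.3.3 (filterByExpr, TMM, robust quasi-likelihood F test) with Benjamini-Hochberg adjustment over all genes tested and a threshold of 0.05. Positive values mean higher in Pdap1-deficient mice or in LPS-BAFF-TGFβ cultures. Standard errors come from the log2 fold change and its F statistic. In the genotype comparisons mice are the replicates, and p-values measure the spread between mice. The main fits between stimulations and of the genotype by stimulation term treated both cultures of a mouse as independent. CPM used TMM-scaled totals over the 12 libraries, and levels per kb used GENCODE M21 exon lengths. DESeq2 1.42.0 and the other alternatives are described in the closing section. On simulated counts with 200 genes changed 3-fold, edgeR recovered 85% under LPS-IL-4 (15074 genes), 76% under LPS-BAFF-TGFβ (14079 genes) and 50% for the genotype by stimulation term (15794 genes). It also called 19, 20 and 5 unchanged genes. These shares hold for 3-fold changes, and recovery of the smaller changes of the synthesis genes was not simulated.

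All 10 members are named, as are the folate genes, selected neighbours and, from other lists, up to 3 called genes per direction with the smallest adjusted p. The members and the 18 lists (135 symbols, 134 matched) were chosen with earlier results of these data known. A few genes of these lists are not reported here. By the series description, cultures with 1 number come from the same mouse, so the mouse was a block in an alternative for the stimulation comparisons and the genotype by stimulation term. The deviations of a mouse's libraries correlated at 0.60, 0.69 and 0.40 in Pdap1-deficient and at -0.24, 0.36 and -0.13 in control mice 1 to 3.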

Additional observations from a re-analysis of the deposited data

How the results depend on the processing

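With LPS-IL-4, 3 of 10 genes were called lower. The count was 8 by DESeq2 and 10 without a filter on low counts, between 0 and 8 with 1 library left out, 2 (*Cad* and *Gart*) with the replicate number as a replicate block, and 3 with DESeq2 size factors, untrimmed library totals, all 12 libraries in one fit or libraries thinned to the smallest. Genotype numbers do not pair mice (correlations of deviations from -0.24 to 0.17). With LPS-BAFF-TGFβ and for the genotype by stimulation term 0 of 10 were called under any alternative run. Between stimulations in control mice 2 were called. The count was 1 with the mouse as a replicate block, 1 with all 12 libraries in one fit and between 0 and 6 with 1 library left out. In Pdap1-deficient mice the replicate block gave 1, *Paics*. The block changed no other call of the 10 genes. Of the 14 other listed genes called by genotype with LPS-IL-4, 2 to 4 kept their call without Pdap1-deficient mouse 3 or a control mouse, and 12 to 14 in the other settings. Of 6 with LPS-BAFF-TGFβ, 1 to 6 kept it with 1 library left out and 6 otherwise. Of 29 called between stimulations in control mice the block kept 22, and *Myc*, *Atf4*, *Adk*, *Rrm2b* and *Phgdh* were among the others. All 10 log2 fold changes by genotype stayed below 0 under every alternative in both stimulations. Over all genes, calls by genotype with LPS-IL-4 numbered 741 (4.92%) against 1229 (4.28%) by DESeq2 and 1694 (5.9%) without the filter. The smallest adjusted p there was 1.92e-55 without the filter and 1.10e-05 in the main fit (edgeR). With LPS-BAFF-TGFβ calls numbered 65 against 174, 257 and, in one fit of 12 libraries, 133. For the genotype by stimulation term edgeR called 0 genes (755 at an unadjusted p under 0.05, smallest adjusted p 0.217), DESeq2 6, and edgeR without the filter 1. Between stimulations in Pdap1-deficient mice 1675 genes were called against 3854 with the block. Log2 values near 0 changed sign, none of them called. For *Paics* in control mice the value was -0.0034 with untrimmed totals and between -0.017 and 0.049 with 1 library left out. In Pdap1-deficient mice *Adsl* was -0.0045 by DESeq2, -0.031 with untrimmed totals, -0.020 without the filter, -0.063 without mouse 2 and between -0.12 and 0.15 with 1 library left out. *Umps* was -0.0061, -0.035, -0.020 and -0.041 in the same settings, -0.023 with thinned libraries and between -0.14 and 0.13 with 1 library left out. *Dhodh* was -0.0071 without mouse 2. With 1 library left out *Dhodh* ranged from -0.045 to 0.18, *Ppat* from -0.23 to 0.087, *Atic* from -0.066 to 0.19 and *Ctps* from -0.22 to 0.034, and the genotype by stimulation term of *Ppat* from -0.035 to 0.28. The cause of these shifts was not tested. The setting without mouse 2 was chosen after seeing the data. With 3 mice per group, the spread between mice limits which changes of this size can be called: the biological coefficient of variation was 17.2% in the LPS-IL-4 fit and 20.9% in the other.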

Other observations

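Several genes of nucleotide handling outside the de novo pathway differed between stimulations. *Samhd1*, which hydrolyses deoxynucleotides, was lower with LPS-BAFF-TGFβ, at -1.73 (SE 0.09, adjusted p = 7.19e-06) on the log2 scale in control and -1.95 (SE 0.34, adjusted p = 0.0198) in Pdap1-deficient mice (edgeR). *Ak4*, a mitochondrial nucleotide kinase gene whose mRNA was scarce with LPS-IL-4, rose by 2.39 (SE 0.31, adjusted p = 0.00105) and 2.77 (SE 0.39, adjusted p = 0.00168). *Uprt*, a relative of the microbial uracil salvage enzyme, rose by 1.21 (SE 0.15, adjusted p = 9.44e-04) and 1.02 (SE 0.15, adjusted p = 0.00187). In control mice *Xdh*, which oxidises hypoxanthine and xanthine to urate, fell from 7.41, 5.94 and 11.1 to 0.366, 0 and 0.122 CPM in mice 1 to 3 (adjusted p = 3.49e-04). There *Cmpk2*, a mitochondrial kinase of pyrimidine nucleotides (-2.66, SE 0.22, adjusted p = 1.05e-04), and *Adk*, the adenosine kinase (-0.38, SE 0.10, adjusted p = 0.0319), fell as well. In Pdap1-deficient mice *Ada*, which deaminates adenosine, fell (-0.59, SE 0.14, adjusted p = 0.0244). *Rrm2b*, the ribonucleotide reductase subunit used outside S phase, rose in control mice (0.52, SE 0.14, adjusted p = 0.0321). With the mouse as a block *Adk* (adjusted p = 0.0796) and *Rrm2b* (adjusted p = 0.0723) did not pass in control mice. Calls in 1 genotype were often matched in the other without a call. In Pdap1-deficient mice *Xdh* was at 9.68%, *Cmpk2* at 14.4% and *Rrm2b* at 135.5% of the LPS-IL-4 mean without overlap, whereas *Adk* (102.9%) overlapped. In control mice *Ada* was at 80.2% without overlap.

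The supply genes of one-carbon units and amino acids also differed by stimulation. In control mice *Slc19a1* (-1.04, SE 0.15, adjusted p = 0.00212), *Shmt1* (-0.72, SE 0.11, adjusted p = 0.00232) and *Shmt2* (-0.45, SE 0.08, adjusted p = 0.00631) were lower with LPS-BAFF-TGFβ, as were the glutamine carrier *Slc1a5* (-0.66, SE 0.15, adjusted p = 0.0175), the transaminase *Got1* (-0.61, SE 0.09, adjusted p = 0.00284) and the first serine enzyme *Phgdh* (-0.34, SE 0.09, adjusted p = 0.0366), while the glutamine synthetase gene *Glul* rose (0.62, SE 0.13, adjusted p = 0.0107). *Phgdh* did not pass with the mouse as a block (adjusted p = 0.115). In Pdap1-deficient mice *Got1* (-0.57, SE 0.13, adjusted p = 0.0175), *Slc1a5* (-0.47, SE 0.12, adjusted p = 0.0282) and *Aldh1l2* (-0.62, SE 0.17, adjusted p = 0.0407) fell and *Glul* (0.78, SE 0.13, adjusted p = 0.00331) rose. Here too *Slc19a1* (67.3% of the LPS-IL-4 mean) and *Shmt1* (70.9%) were lower without overlap in Pdap1-deficient mice, not called, whereas *Shmt2* and *Phgdh* overlapped. *Aldh1l2* was lower without overlap in control mice (62.7%), not called. No term of genotype by stimulation was called for any of these genes. Of 5 plasmablast markers tested, 1, *Prdm1*, was called higher in Pdap1-deficient cells with LPS-IL-4 (1.82, SE 0.16, adjusted p = 3.23e-04), at 18.2, 14.1 and 19.98 CPM in control mice 1 to 3 and 50.6, 65.1 and 71.2 CPM in Pdap1-deficient mice. *Sdc1* had a value of the opposite sign, with 6.42, 8.99 and 9.90 against 5.84, 3.95 and 5.29 CPM (-0.76, SE 0.23, adjusted p = 0.0858), without overlap and not called. In all, 4 of the 5 were fitted above control, and *Irf4* (123.6% of the control mean) was higher without overlap, not called. With LPS-BAFF-TGFβ 0 of 5 were called, and *Prdm1* (122.4%) overlapped. The study reported no significant difference in plasmablast percentage in vitro and no apparent change of the plasmablast signature.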
